A study of Arabidopsis thaliana with 8 samples.

Results

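The 10 genes described here make and control the indolic defence compounds of Arabidopsis thaliana, camalexin and the indole glucosinolates. They were fixed by locus, as PAD3, CYP71A12, CYP71A13, CYP79B2, CYP79B3, CYP83B1, SUR1, CYP81F2, CYP81F4 and MYB51. Each was represented by 1 probe, and all 10 passed the filter on dim probes, among 21446 loci tested of 25665 on the array. To pass, a probe had to be well above background in every one of the 4 samples of some genotype and tissue.

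RNA of paps1-1, a mutant in the nuclear poly(A) polymerase PAPS1, was set against RNA of its wild type on 8 two-colour arrays, both in the Ler ecotype and grown at 21 °C in long days. On 4 arrays both genotypes were main inflorescences of soil-grown plants aged 30 days, with open flowers removed. On the other 4 they were whole seedlings with roots from MS plates, the mutant aged 11 days and the wild type 9 days. The labels give the ages as matched by the stage of the first true leaves, so age goes with genotype in seedlings. All material was taken 5 to 7 hours into the light period. The design text calls the 4 samples of a group biological replicates, without saying whether they were grown as separate cultures, and the p-values measure the spread between these samples. Within a tissue the mutant was in Cy5 on 2 arrays and in Cy3 on the other 2. Each tissue had a slide of its own, and the effects of slide and tissue cannot be told apart. The medians of signal over background per array were 2.66 to 5.02 in red and 3.35 to 5.51 in green. PAPS1 itself had log2 ratios of mutant over wild type between 0.04 and 0.20 on the inflorescence arrays and between −0.11 and 0.08 on the seedling arrays. The labels do not give the kind of allele, so this transcript does not check the genotype labels.

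Camalexin is the sulfur-containing indole phytoalexin of Arabidopsis, made when pathogens are sensed, while indole glucosinolates are stored in healthy tissue and split by β-thioglucosidases after attack. Both start from tryptophan. CYP79B2 and CYP79B3 turn it into indole-3-acetaldoxime, at which the routes part. CYP71A12 and CYP71A13 take the aldoxime to indole acetonitrile and PAD3 completes camalexin, whereas CYP83B1 and the C-S lyase SUR1 lead into the glucosinolate core. CYP81F2 and CYP81F4 then hydroxylate the indole ring of the glucosinolate at different positions, and the transcription factor MYB51 activates genes of the glucosinolate branch.

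In seedlings 7 of the 10 genes rose in the mutant and none fell, with the highest ratio at PAD3. In inflorescences 4 fell, 1 rose and 5 did not pass. Calls rest on an adjusted p under 0.05 in limma. Over all loci tested, 28.6% were called higher and 29.3% lower in seedlings, and 26.2% higher and 27.5% lower in inflorescences. The median log2 ratio of the 10 genes was 0.89 in seedlings and −0.03 in inflorescences, against −0.004 and 0.001 over all loci. CYP71A12 and CYP71A13 passed the filter through mutant seedlings alone, the group in which they were high, so the seedling count and median do not stand as support for a rise of the set. The effect of the mutation differed between tissues for 8 of the 10 genes, each with the higher ratio in seedlings, a call made in that direction for 16.3% of all loci and in the other for 15.9%. That count includes CYP71A12 and CYP71A13, which were at the limit of detection in inflorescences, so it does not stand as support either. The 2 genes for which the difference did not pass were SUR1 and MYB51.

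The levels given below are log2 intensities of a gene's probe in a channel, and a probe is compared only with itself. The offset of 50 added to every signal has a log2 of 5.64, but groups with no array well above background lay higher than that. CYP71A12 in wild-type inflorescences was at 5.90 to 6.10 and CYP71A13 in mutant inflorescences at 6.15 to 6.36. Mutant and wild type did not overlap over their 4 samples for 7 of the 10 genes in seedlings, each time with the mutant above, and for 5 in inflorescences, 1 with the mutant above and 4 with it below. Such separation was seen for 42.8% of loci in seedlings and 43.2% in inflorescences. Whether fewer cells of a type or less RNA per cell lies behind a lower level cannot be told apart in whole tissue.

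**Figure D1:**
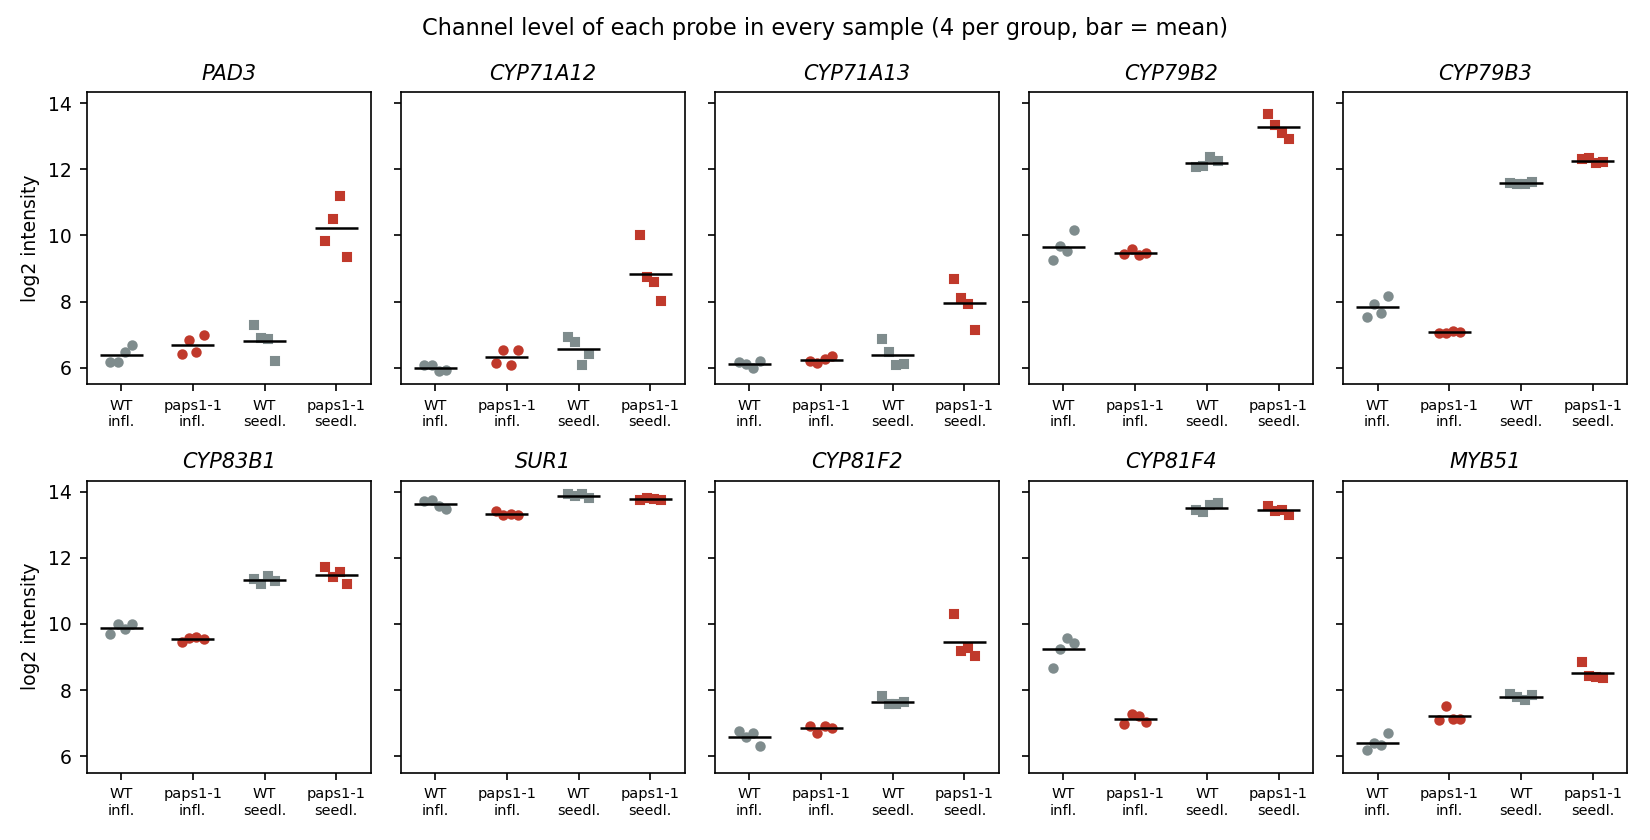
Log2 intensity (vertical axis) of the probe of each of the 10 genes in every sample, with 4 samples per group (points, wild type grey, mutant red) and the group mean (bar). PAD3 has mutant seedlings between 9.36 and 11.19 and no sample of the other groups above 7.28, and CYP81F4 lies near 13.5 in seedlings of both genotypes and lowest in mutant inflorescences.

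PAD3 (AT3G26830), the last enzyme of camalexin synthesis, showed the largest change of the 10 genes. Its level in wild-type seedlings was 7.28, 6.89, 6.88 and 6.20 on replicates 1 to 4, and in mutant seedlings 9.82, 10.51, 11.19 and 9.36. Every mutant sample lay above every wild-type sample, and the wild type was well above background on 2 of its 4 arrays. The ratio on the log2 scale rose by 3.41 ± 0.22 (SE, n = 4, adjusted p = 1.36e-06), or 10.6-fold, and ranked seventh from the top of all loci. In inflorescences the mutant samples lay between 6.42 and 6.99 and the wild type between 6.18 and 6.69. These ranges overlapped, and the log2 ratio of 0.31 ± 0.22 did not pass (adjusted p = 0.264), although it did with each tissue fitted alone (adjusted p = 0.0179). The seedling effect exceeded that in inflorescences by 3.10 ± 0.31 (adjusted p = 8.99e-05). As the wild type is dim, the ratio depends on the background correction, and the scanner software's own log ratio gave 5.26 in seedlings.

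CYP71A12 (AT2G30750) and CYP71A13 (AT2G30770), the nitrile-forming enzymes ahead of PAD3, rose with it in seedlings. CYP71A12 measured 6.92, 6.79, 6.10 and 6.42 in wild-type and 10.004, 8.75, 8.58 and 8.03 in mutant seedlings. The groups were apart, and the log2 ratio rose by 2.29 ± 0.19 (adjusted p = 6.20e-06). CYP71A13 measured 6.86, 6.48, 6.09 and 6.13 in wild-type and 8.67, 8.11, 7.92 and 7.16 in mutant seedlings. Again no sample of one genotype reached the other, and the log2 ratio rose by 1.57 ± 0.11 (adjusted p = 2.82e-06). The wild type was well above background on 3 arrays for CYP71A12 and on 1 for CYP71A13, and the software's log ratio gave 4.37 and 4.66.

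In inflorescences both CYP71A genes were at the limit of detection. CYP71A12 was well above background on 2 of the 4 mutant arrays and on no wild-type array. Its levels overlapped between genotypes, and the fit did not pass (adjusted p = 0.180). With wild-type values raised to at least the lowest level well above background, the 4 mutant arrays averaged 1.23-fold higher, beside 1.25-fold in the fit. That figure leaves out the spread between arrays and is no lower limit. Without inflorescence replicate 4 the log2 ratio was 0.18 ± 0.22 (adjusted p = 0.543). It did pass with normexp offset 0, with the software's log ratio and with the deposited value table, at log2 ratios of 0.99, 1.80 and 0.94, and with each tissue fitted alone (adjusted p = 0.0209). CYP71A13 was above background on no mutant array and on 1 wild-type array there, so no direction is given, although the fit of each tissue alone called it (adjusted p = 0.04997). The fitted effects were larger in seedlings than in inflorescences by 1.97 ± 0.27 and 1.46 ± 0.16 (adjusted p = 0.000533 and 0.000161). These differences set the seedling ratios against values at the limit of detection, so they do not compare 2 detected effects. The loci lie close together in the RefSeq gene table, with the genes AT2G30760 and AT2G30766 between them, and are similar copies. Whether each probe detects only its own gene was not tested.

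CYP79B2 (AT4G39950) and CYP79B3 (AT2G22330), which make the aldoxime that both routes share, rose in mutant seedlings. CYP79B2 measured 12.06, 12.09, 12.38 and 12.24 in wild-type and 13.68, 13.35, 13.11 and 12.91 in mutant seedlings. The genotypes were apart, and its log2 ratio rose by 1.07 ± 0.10 (adjusted p = 1.20e-05). Its log2 ratios were 1.62 and 1.26 where the mutant carried Cy5, and 0.73 and 0.67 where it carried Cy3. CYP79B3 measured 11.59, 11.56, 11.56 and 11.60 in the wild type and 12.30, 12.35, 12.19 and 12.21 in the mutant, again with no overlap. Its log2 ratio rose by 0.68 ± 0.09 (adjusted p = 9.40e-05).

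The direction of CYP79B3 turned in inflorescences. Its level was 7.54, 7.93, 7.66 and 8.18 in wild-type and 7.06, 7.05, 7.11 and 7.08 in mutant inflorescences, with every mutant sample lower. The log2 ratio fell by 0.75 ± 0.09 (adjusted p = 6.00e-05). CYP79B2 overlapped between genotypes there, with single arrays from −0.71 to 0.19 and a log2 ratio of −0.19 ± 0.10 that did not pass (adjusted p = 0.138). Without inflorescence replicate 3 it was −0.33 ± 0.08 and passed (adjusted p = 0.0110). The difference between tissues was 1.43 ± 0.12 for CYP79B3 and 1.26 ± 0.14 for CYP79B2 (adjusted p = 3.68e-05 and 0.000162).

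CYP83B1 (AT4G31500) and SUR1 (AT2G20610), which carry the aldoxime into the glucosinolate core, fell in inflorescences by small amounts. CYP83B1 measured 9.69, 9.99, 9.86 and 9.997 in the wild type and 9.44, 9.58, 9.59 and 9.54 in the mutant, and its log2 ratio fell by 0.34 ± 0.06 (adjusted p = 0.00105). SUR1, which also serves glucosinolates of other amino acids, measured 13.70, 13.76, 13.55 and 13.46 in the wild type and 13.40, 13.29, 13.32 and 13.28 in the mutant, and fell by 0.30 ± 0.05 (adjusted p = 0.000741). For both genes all mutant inflorescences lay below all wild-type ones. In seedlings the genotypes overlapped, with log2 ratios of 0.15 ± 0.06 for CYP83B1 (adjusted p = 0.0558) and −0.11 ± 0.05 for SUR1 (adjusted p = 0.0835). The call of CYP83B1 in seedlings was gained without seedling replicate 4 (adjusted p = 0.0212), without inflorescence replicate 3 (adjusted p = 0.0461) and with the strict filter (adjusted p = 0.0480). The difference between tissues was 0.50 ± 0.09 for CYP83B1 (adjusted p = 0.00221, and 0.0522 with median centring) and 0.19 ± 0.07 for SUR1 (adjusted p = 0.0719).

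**Figure D2:**
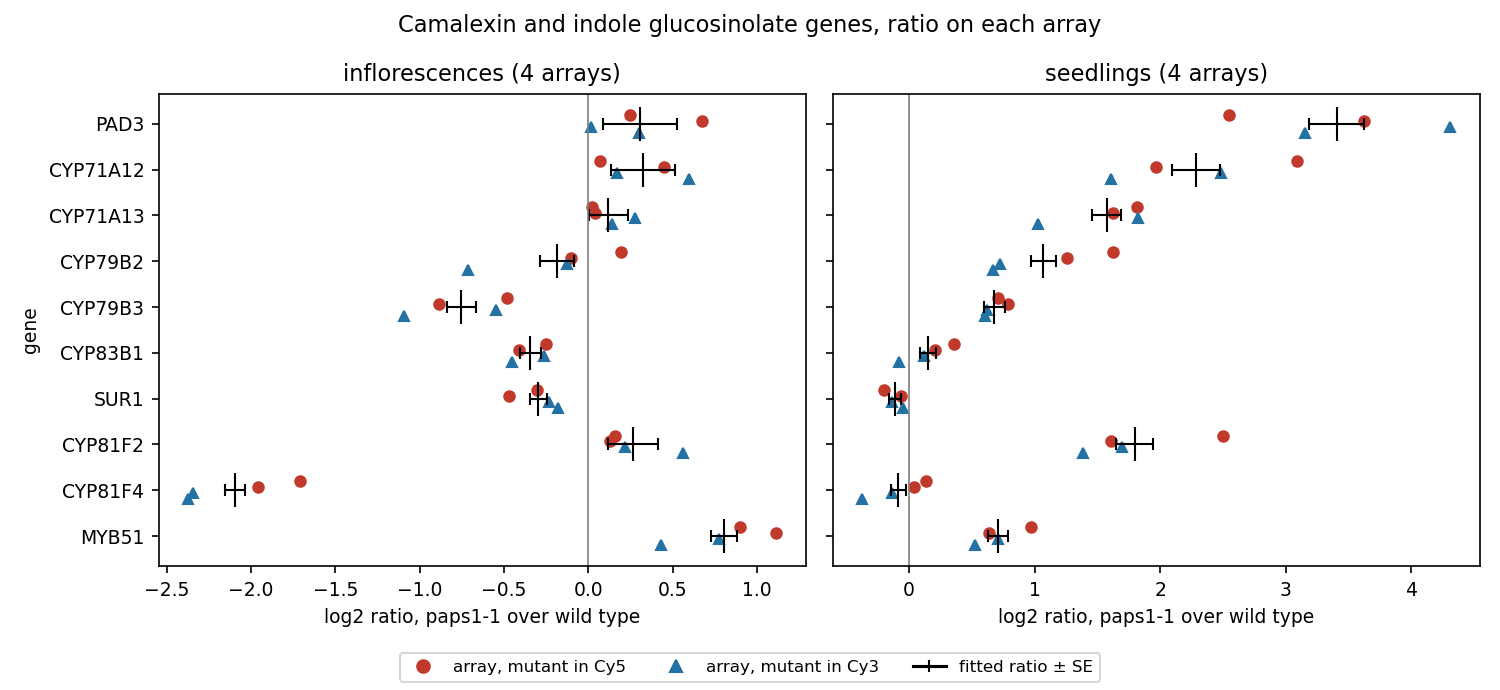
Log2 ratio of paps1-1 over wild type (horizontal axis) on each of the 4 arrays of a tissue for the 10 genes, with the fitted ratio and its SE (bar). Circles are arrays with the mutant in Cy5 and triangles arrays with it in Cy3, and PAD3 in seedlings spans 2.54 to 4.31, while CYP81F4 in inflorescences spans −2.37 to −1.71.

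The 2 ring hydroxylases of the CYP81F family parted. CYP81F2 (AT5G57220), whose product is needed for the glucosinolate-dependent defence against fungi, measured 7.81, 7.57, 7.57 and 7.65 in wild-type and 10.31, 9.18, 9.27 and 9.04 in mutant seedlings. The genotypes were apart and the log2 ratio rose by 1.80 ± 0.15, or 3.48-fold (adjusted p = 5.67e-06), with replicate 1 at 2.50 and the others between 1.39 and 1.70. In inflorescences its log2 ratio of 0.26 ± 0.15 did not pass (adjusted p = 0.157), and levels overlapped. It passed without seedling replicate 1 (adjusted p = 0.0148), and with each tissue fitted alone (adjusted p = 0.0109). The tissues differed by 1.53 ± 0.21 (adjusted p = 0.000513).

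CYP81F4 (AT4G37410), which starts the branch to the N-methoxylated glucosinolate, fell by more than the other 9 genes in inflorescences. There it measured 8.68, 9.24, 9.57 and 9.42 in the wild type and 6.97, 7.28, 7.23 and 7.05 in the mutant. All mutant samples lay lower, and the log2 ratio fell by 2.09 ± 0.06 (adjusted p = 2.61e-08), or 4.27-fold, the fifth lowest ratio of all loci. In seedlings it measured 13.43, 13.37, 13.59 and 13.66 in the wild type and 13.57, 13.41, 13.45 and 13.29 in the mutant. These overlapped, and the log2 ratio of −0.08 ± 0.06 did not pass (adjusted p = 0.260). The difference of 2.01 ± 0.08 was larger than the spread (adjusted p = 7.88e-07).

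MYB51 (AT1G18570), the regulator, was the gene that rose in both tissues. It measured 6.20, 6.41, 6.35 and 6.70 in wild-type and 7.09, 7.52, 7.12 and 7.13 in mutant inflorescences. In seedlings it measured 7.87, 7.79, 7.69 and 7.85 in the wild type and 8.85, 8.43, 8.40 and 8.37 in the mutant. The genotypes were apart in each tissue, and the log2 ratio rose by 0.80 ± 0.08 (adjusted p = 2.12e-05) and 0.71 ± 0.08 (adjusted p = 3.76e-05). Its effects differed by −0.09 ± 0.11 (adjusted p = 0.567). The wild type was well above background on 3 of 4 inflorescence arrays, and the software's log ratio gave 2.24 there against 0.96 in seedlings, so that the difference became −1.28 (adjusted p = 0.0224).

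Set side by side over the 4 groups, the levels formed 3 kinds of order, given here as a description across slides. For PAD3, CYP71A12 and CYP71A13, mutant seedlings stood above the rest, and the next groups overlapped each with the following. CYP79B2, CYP79B3, CYP83B1, SUR1 and CYP81F4 were higher in seedlings than in inflorescences for each genotype, with wild-type means apart by 4.28 for CYP81F4, 3.75 for CYP79B3, 2.53 for CYP79B2, 1.44 for CYP83B1 and 0.26 for SUR1, and mutant inflorescences lowest in mean. For MYB51 all neighbours in the order were apart, from wild-type inflorescences at 6.41 ± 0.21 (SD) through mutant inflorescences at 7.21 ± 0.20 and wild-type seedlings at 7.80 ± 0.08 to mutant seedlings at 8.51 ± 0.23. CYP81F2 had the same order, with its inflorescence groups overlapping.

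**Figure D3:**
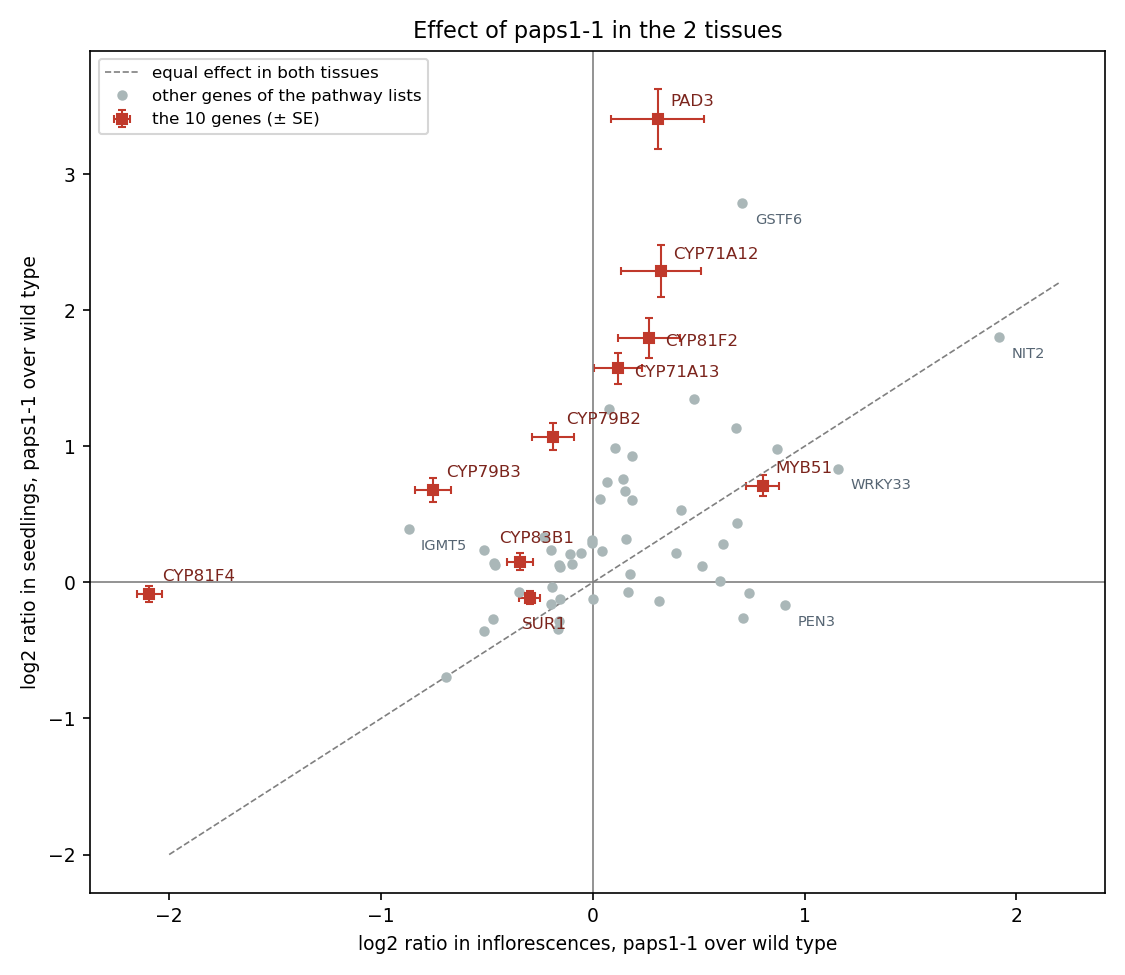
Log2 ratio of paps1-1 over wild type in seedlings (vertical axis) against that in inflorescences (horizontal axis) for the 10 genes (squares, ± SE) and the 51 other pathway genes tested (circles), with the line of equal effects dashed. MYB51 lies by the line, CYP81F4 far to the left at −2.09, and PAD3 at the top at 3.41.

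Tryptophan synthesis supplies the pathway, and 7 of its 9 genes tested rose in seedlings while 1 fell, beside 28.6% and 29.3% of all loci. That gene, named after its value was seen, was ASA2, for a subunit of anthranilate synthase, at −0.29 ± 0.05 (adjusted p = 0.000945). PAT1, of the second step, rose by 0.76 ± 0.05 (adjusted p = 2.10e-06) and TSA1, for the α subunit of tryptophan synthase, by 0.74 ± 0.04 (adjusted p = 8.32e-07). In inflorescences 2 rose, 3 fell and 4 did not pass, beside 26.2% and 27.5% of all loci, with PAI1 falling by 0.47 ± 0.05 and ASB1 by 0.16 ± 0.05. The median of the 9 genes was 0.21 in seedlings and −0.10 in inflorescences. For 7 of the 9 the effect was higher in seedlings by the test of the difference, beside 16.3% of all loci.

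Of 12 genes for the shared core, covering glutathione conjugation, trimming of the conjugate, glucosyl and sulfate transfer and sulfate activation, 6 rose and 3 fell in seedlings, beside 28.6% and 29.3% of all loci. GSTF6, a glutathione transferase linked to camalexin, rose by 2.79 ± 0.07 (adjusted p = 1.67e-08) and SOT18, a sulfotransferase that prefers methionine-derived substrates, fell by 0.70 ± 0.06 (adjusted p = 5.85e-06). In inflorescences 4 rose and 5 fell, beside 26.2% and 27.5%, with GSTF6 rising by 0.71 ± 0.07 and SOT18 falling by 0.69 ± 0.06. The list median was 0.19 in seedlings and −0.08 in inflorescences.

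Of 10 genes that modify, split or export indole glucosinolates, 7 rose, 1 fell and 2 did not pass in inflorescences, beside 26.2% and 27.5% of all loci, with a median of 0.64. PEN3, a transporter of the plasma membrane in defence, rose by 0.91 ± 0.10 (adjusted p = 4.75e-05) and IGMT3, of the indole glucosinolate methyltransferases, by 0.87 ± 0.08 (adjusted p = 1.73e-05). The thioglucosidase gene PEN2, named after its value was seen, rose by 0.60 ± 0.08 there (adjusted p = 0.000207), measured on 3 of the 4 arrays since a spot was marked as an outlier. The member that fell was IGMT5, also named after its value was seen, which methylates the product of CYP81F4. It fell by 0.87 ± 0.07 in inflorescences (adjusted p = 5.41e-06), as CYP81F4 did, and rose by 0.39 ± 0.07 in seedlings (adjusted p = 0.000660). By the test of the difference, 3 of the 10 had the higher effect in seedlings and 4 the lower, beside 16.3% and 15.9% of all loci. In seedlings 6 of the 10 rose and 1 fell, beside 28.6% and 29.3%, with a median of 0.22, CYP81F3 rising by 1.14 ± 0.06 (adjusted p = 4.49e-07) and IGMT3 by 0.98 ± 0.08 (adjusted p = 6.50e-06).

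The neighbours of CYP81F4 in the RefSeq gene table were looked up after these values were seen, 4 on each side. AT4G37380 and BRU6 (AT4G37390) fell in inflorescences, by 0.44 ± 0.05 (adjusted p = 3.32e-05) and 0.17 ± 0.05 (adjusted p = 0.0106). CYP81F3 (AT4G37400), which lies between these and CYP81F4, rose by 0.68 ± 0.06 in inflorescences (adjusted p = 1.12e-05). AT4G37420, next after it, was at −0.08 ± 0.06, CYP81F1 (AT4G37430) at 0.18 ± 0.10 and AT4G37440 at 0.03 ± 0.04, and none of these 3 passed. AT4G37409 and AT4G37435 had no probe. IGMT1 to IGMT4 are also adjacent, as near-identical copies, and whether their probes tell them apart was not tested.

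Other uses of indole-3-acetaldoxime and indole acetonitrile had 4 of 7 tested genes higher in seedlings and 3 of 7 in inflorescences, and none lower, beside 28.6% and 26.2% of all loci higher. The nitrilase gene NIT2 rose by 1.80 ± 0.26 in seedlings and 1.92 ± 0.26 in inflorescences (adjusted p = 0.000224 and 0.000181). FOX1, an oxidase of the cyanogenic branch beside camalexin, rose by 1.27 ± 0.19 in seedlings (adjusted p = 0.000275) and was not well above background on any inflorescence array. AMI1, an amidase gene, rose by 0.52 ± 0.11 in inflorescences. CYP82C2, which follows FOX1, did not pass the filter, being well above background on 2 of the 4 mutant seedling arrays and on no other sample.

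Among 11 regulators, 6 rose and 1 fell in seedlings, beside 28.6% and 29.3% of all loci, and 5 rose and 5 fell in inflorescences, beside 26.2% and 27.5%. WRKY33, an activator of PAD3 and CYP71A13, rose by 1.16 ± 0.14 in inflorescences and 0.84 ± 0.14 in seedlings (adjusted p = 9.55e-05 and 0.000634). ANAC042, another activator of camalexin genes, rose by 1.35 ± 0.12 in seedlings and 0.48 ± 0.12 in inflorescences (adjusted p = 1.20e-05 and 0.00875). OBP2, a DOF factor that promotes CYP83B1, rose by 0.68 ± 0.05 in inflorescences and 0.44 ± 0.05 in seedlings (adjusted p = 2.21e-06 and 2.60e-05). MYB34, the relative of MYB51 that acts mainly in roots, was named after its values were seen. It fell by 0.51 ± 0.08 in inflorescences (adjusted p = 0.000345) and rose by 0.24 ± 0.08 in seedlings (adjusted p = 0.0239). Of the 2 glucosinolate transporter genes, GTR1 rose by 0.17 ± 0.06 in inflorescences, and the other, GTR2, named after its value was seen, rose by 0.34 ± 0.11 in seedlings, where its 4 arrays ran from −0.01 to 0.96.

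Over these 6 lists, 30 of the 51 genes tested rose and 6 fell in seedlings, against 28.6% and 29.3% of all loci. In inflorescences 22 rose and 14 fell, against 26.2% and 27.5%, so that the share that fell there was that of all loci. Of the 53 genes listed, PAI2 had no probe and CYP82C2 did not pass the filter. The lists were chosen with earlier results of these data known, so the counts are descriptions.

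**Figure D4:**
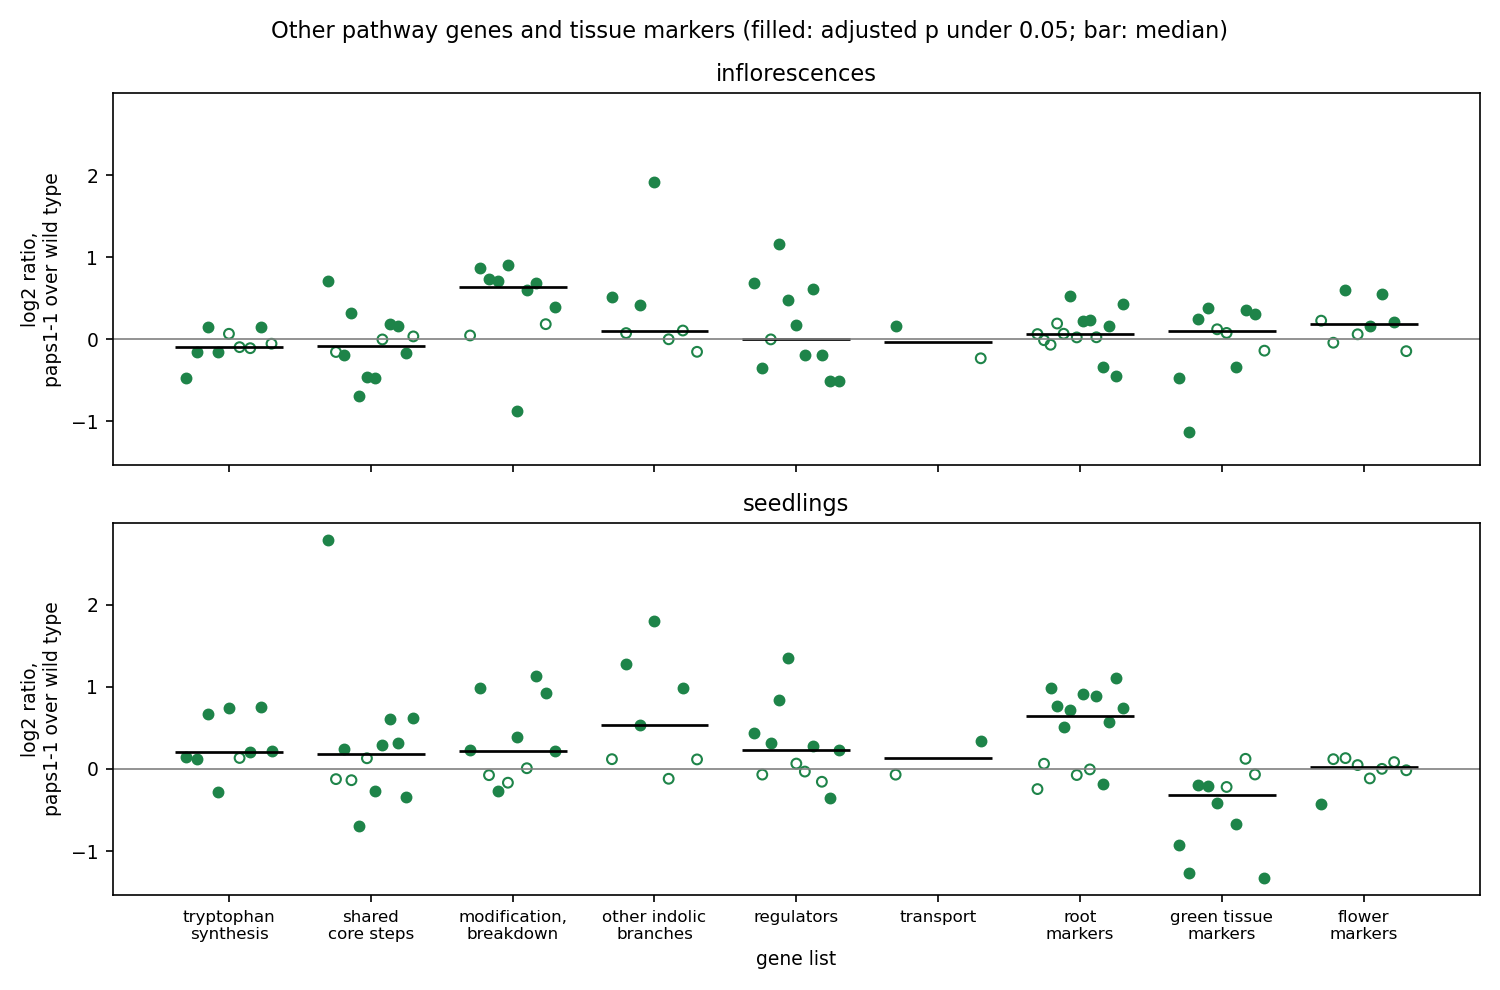
Log2 ratio of paps1-1 over wild type (vertical axis) in inflorescences (upper panel) and seedlings (lower panel) for the genes of 6 other pathway lists and 3 lists of tissue markers, filled where the adjusted p was under 0.05, with the list median as a bar. The modification and breakdown list has its median at 0.64 in inflorescences, and the root markers have theirs at 0.65 in seedlings.

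Tissue markers moved with genotype beside these results. In seedlings, where 28.6% of all loci rose and 29.3% fell, 9 of 14 root markers rose and 1 fell, with a median of 0.65. Of 10 green tissue markers 7 fell and none rose there, with a median of −0.32. The summed intensity of the root markers was 53766 to 73841 in mutant and 56309 to 73162 in wild-type seedlings. Without PYK10, the brightest, left out after the values were seen, it was 9063 to 10677 and 7060 to 7798. That of the green tissue markers was 729312 to 906332 in the mutant and 1072540 to 1315280 in the wild type. In inflorescences the root markers summed to 5891 to 6554 and 5903 to 6803, overlapping between genotypes, and EXPA7, PRP3, RHD6, NRT2.1 and LRX1 were not well above background on any array. The flower markers were all above background in inflorescences, summing to 159039 to 169103 in the mutant and 140638 to 144732 in the wild type, against 1997 to 2543 and 2523 to 3181 in seedlings, where LFY was not well above background. Without SEP3, the brightest, the seedling sums were 700 to 780 in the mutant and 657 to 782 in the wild type. SEP3 was likewise left out after the values were seen. The part of tissue composition and of the gap of 2 days in age in the seedling values was not tested.

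The loci whose ratios were most like that of PAD3 over the 8 arrays were UCC1, MYB66, AT3G04230, AT5G11410 and SBT3.5, with Pearson's r between 0.991 and 0.996 across 21219 loci compared. MYB66, also named WEREWOLF, is among the root markers and rose by 0.57 ± 0.05 in seedlings. For CYP81F4 they were AT3G21300, AT1G06620, AT1G76640, AT4G12090 and MGDC, with r between 0.993 and 0.995. In the order given, the log2 ratios of these loci were 0.22, −0.30, −0.60, −0.06 and −0.83 in inflorescences. In seedlings they were 0.63, 0.98, 0.25, 0.57 and 0.64. The last, MGDC, is a galactolipid synthase gene. Since the 8 arrays fall into 2 tissues, any locus whose gap between tissues is large beside its spread within them can reach a high r. The gap itself may be small, and the values are a description of the pattern.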

How the data were processed

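Feature Extraction 10.7.3.1 wrote the scanner data, per the file headers. They hold median spot and local background intensity in both colours without normalization, a processed intensity, and a deposited log10 ratio of red over green processed signal. The authors' deposited value table holds log2 ratios that were already turned to mutant over wild type, as checked by correlation with the scanner signals (0.802 to 0.906 with the mutant in Cy5, −0.908 to −0.889 with it in Cy3). Its medians per array ranged from −0.02 to 0.02. Of its making, only the tool limma is named, per the submitters' processing notes, so its normalization is unknown here.

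Median signals were corrected with normexp (offset 50) and normalized by loess within arrays, using R 4.3.3, limma 3.58.1 and data.table (1.17.8), with control and outlier spots at weight 0. No spot was saturated, and outlier spots were left out. A probe had to be measured on at least 6 arrays, and a locus with several kept probes was read from the brightest. After loess a ratio is relative to the bulk of the array's transcripts. All 8 arrays were fitted together with 1 coefficient per tissue and a dye term (5 residual and 4.86 prior degrees of freedom), with Benjamini-Hochberg adjustment over 21446 loci. The number of arrays limits the precision. Levels are channel intensities after Aquantile scaling. The fit was tested on simulated data.

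Tissues share replicate numbers. Same-numbered arrays deviated together from their tissue means (r of 0.118 to 0.320). The number also sets the dye orientation. With that removed, r was −0.003 for replicates 1 and 2 and 0.03 for replicates 3 and 4. Each tissue has 2 arrays per orientation, so both replicates of an orientation share 1 r by construction. As every r of the first kind was above 0.1, the block was tried as an alternative. Arrays of unlike number but the same dye orientation gave r of 0.079 to 0.372, so these values do not show that the numbers pair the arrays. The labels name no shared plants, batch or day. Named genes were the 10, the 2 largest changes per list and tissue with the same sign on all 4 arrays, the 5 loci most like PAD3 and CYP81F4, and exceptions marked in the text. The 10 genes and all lists were chosen with earlier results of these data known. Symbols are from RefSeq, whose gene list held 25449 of 25665 loci. Whether the labelling depends on the poly(A) tail is unknown from the labels, so a ratio is one of measured signal. Alternatives covered background correction, normalization, filter, probes, dye term, tissues fitted alone, each array left out, dye orientation and a replicate block.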

Additional observations from a re-analysis of the deposited data

Results flagged for a closer look

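For 8 of the 10 genes the effect of paps1-1 in seedlings exceeded that in inflorescences by the test of the difference itself, beside 16.3% of all loci. On the log2 scale the difference was 3.10 for PAD3, 2.01 for CYP81F4, 1.97 for CYP71A12, 1.53 for CYP81F2, 1.46 for CYP71A13, 1.43 for CYP79B3, 1.26 for CYP79B2 and 0.50 for CYP83B1. CYP71A12 and CYP71A13 were at the limit of detection in inflorescences, so their differences do not compare 2 detected effects. The ways to the higher effect in seedlings were unlike. In the fit of both tissues together, the ratio of PAD3, CYP71A12, CYP71A13, CYP79B2 and CYP81F2 passed in seedlings and not in inflorescences. That of CYP81F4 and CYP83B1 passed in inflorescences and not in seedlings, and that of CYP79B3 in both with opposite signs. This fit shares 1 spread between tissues, so a ratio that did not pass is not shown to be absent. With each tissue fitted alone, PAD3, CYP71A12, CYP71A13 and CYP81F2 passed in inflorescences too (adjusted p = 0.0179, 0.0209, 0.04997 and 0.0109). Over the 2 tissues, none of the 20 sets of 4 arrays held an array that stood apart from the other 3 by Dixon's criterion.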

How the results depend on the processing

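Of the 30 effects (10 genes in both tissues and in the difference), 22 kept direction and side of the threshold under all alternatives that give a test, and none reversed there. Means over the arrays of 1 dye orientation have no test. With the mutant in Cy5 only, 2 effects that had not passed turned sign, CYP79B2 in inflorescences to 0.05 and CYP81F4 in seedlings to 0.09. Called values stayed on their side of 0, with Cy5 and Cy3 means of −1.83 and −2.36 for CYP81F4 in inflorescences and 1.44 and 0.70 for CYP79B2 in seedlings. In inflorescences 1 gene was higher, and this count became 2 with normexp offset 0, with the software's log ratio and with the deposited value table, 5 with each tissue fitted alone, and 1 to 2 when arrays were left out in turn, with CYP81F2 added without seedling replicate 1. With the software's log ratio 1 gene, MYB51, had the lower effect in seedlings. The strict filter kept 6 of the 10 genes, leaving out PAD3, CYP71A12, CYP71A13 and MYB51 by construction. Of those kept, 0 were higher in inflorescences, 4 in seedlings, and 5 had the higher effect in seedlings. The 4 include CYP83B1, whose call was gained with this filter (adjusted p = 0.0480). Median centring called 3450 loci higher in inflorescences and 3512 in seedlings, and 1071 and 1868 with the higher and the lower effect in seedlings. The share of calls that were higher became 39.0% from 48.7%, 32.4% from 49.4% and 36.4% from 50.7%. The cause was not tested. A replicate block was fitted for the difference between tissues only. With it, 8 genes still had the higher effect in seedlings, from 1.26 for CYP79B2 to 3.10 for PAD3 among the 5 of the camalexin route. Over all loci 3115 were called higher and 2981 lower, and no call on the difference changed for the 10 genes. Signal over background limits PAD3, CYP71A12, CYP71A13 and MYB51, which were dim in at least 1 wild-type group. Other ratios also moved in size with the background correction. With normexp offset 0 and the software's log ratio, CYP81F4 in inflorescences was at −2.55 and −2.73. CYP79B3 was at −1.01 and −1.20 there, and CYP81F2 in seedlings at 2.25 and 2.41. The ratios of CYP79B2, CYP83B1 and SUR1 moved by less.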
